A study of Mus musculus with 6 samples.

Results

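Cytoplasmic ribosomal protein genes encode the proteins of the 40S (small) and 60S (large) subunits of the ribosome outside mitochondria. They were taken as all rows of the expression table whose name follows the mouse nomenclature of this family (Rpl or Rps with a number, Rplp with a number, or Rpsa), which gave 90 of 23420 rows. Of these, 77 were core genes, 31 of the small and 46 of the large subunit. Another 8 were expressed or annotated paralogs with a name of their own (Rpl3l, Rpl7l1, Rpl10l, Rpl22l1, Rpl36al, Rpl39l, Rps4y2 and Rps27l), and 5 carried pseudogene names (Rpl31-ps12, Rpl34-ps1, Rps15a-ps4, Rps15a-ps6 and Rps19-ps3). Fau and Gnb2l1, which also encode proteins of or on the ribosome, have names outside this pattern and are given separately.

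The cells were mouse induced T (iT) cells, sorted as CD4 single-positive (CD4SP) or CD8 single-positive (CD8SP) cells from the spleen, with 3 libraries of 1000 cells per population. They descended from embryonic stem cells (C57BL/6, CD45.2) of the iR9 line, which carries a doxycycline-inducible Runx1-p2a-Hoxa9 cassette in the Rosa26 locus and was differentiated in culture, with doxycycline, into blood progenitors. The progenitors were transplanted without further doxycycline into irradiated B-NDG mice, a NOD strain with the Prkdc scid mutation and without Il2rg that makes no T, B or NK cells but keeps myeloid cells, and the recipients carry CD45.1. The labels give this line, host and procedure for both populations, which were separated by the sort. The labels do not say which libraries came from the same mouse, so p-values measure the spread between these libraries, which may in part be technical.

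The ribosome is built from ribosomal RNA and one copy of most of these proteins, so cells make the proteins in near-equal numbers, and free ribosomal proteins are degraded. Their mRNAs are among the most abundant in a cell and begin with a run of pyrimidines after a cytosine, the 5′ terminal oligopyrimidine (TOP) tract, through which mTORC1 and the RNA-binding protein Larp1 control their translation together. T cells enlarge their pool of ribosomes when they are activated and leave quiescence.

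The tract is shown first because it is the sequence feature that names these mRNAs as a class. In the RefSeq promoter table (GRCm38.p6), 57 of the 77 core genes had at least 1 window, 67 windows in all. A C followed by at least 4 pyrimidines at the annotated start base was found in 13 of the 67 windows (19.4%), against 2.5% of all 32851 windows. The lines below give 15 bases on each side of the boundary, with the pyrimidine tract that opens the transcript in capitals, for 3 genes of each subunit. These are Rpl15 at chr14:18270972-18271001 (minus strand), Rpl28 at chr7:4792950-4792979 (plus strand), Rps18 at chr17:33955651-33955680 (minus strand), Rps6 at chr4:86857353-86857382 (minus strand), Rplp2 at chr7:141447636-141447665 (plus strand) and Rps27 at chr3:90213634-90213663 (minus strand). Of the genes shown, Rps18 was among the 5 most abundant of the small subunit, Rplp2 belongs to the stalk, Rpl28 had one of the lowest ratios of CD4SP to CD8SP, Rps6 is the target of the S6 kinases, and Rps27 was one of the few core genes at a low level.
Rpl15: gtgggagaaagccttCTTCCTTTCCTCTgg
Rpl28: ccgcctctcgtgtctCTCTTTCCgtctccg
Rps18: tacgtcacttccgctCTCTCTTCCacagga
Rps6: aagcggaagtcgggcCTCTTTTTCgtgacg
Rplp2: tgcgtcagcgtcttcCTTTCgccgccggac
Rps27: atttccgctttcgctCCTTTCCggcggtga

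The bases before the start of Rps18, a head protein of the 40S subunit, are shown as one example of a promoter in this family (chr17:33955666-33955915, minus strand, GRCm38.p6). Capitals mark matches to CCGGAAG and to CACTTCCG on either strand. The second run of capitals holds both motifs, which overlap there, since the reverse complement of CACTTCCG shares bases with CCGGAAG. Searched on both strands of windows from 250 bases before to 50 bases after the start, CCGGAAG was in 37.3% of core gene windows and 8.86% of all windows. CACTTCCG was in 8.96% and 3.44% of them, GGGCGG in 61.2% and 35.7%, AAGATGGC in 10.4% and 2.75%, and TATAAA, searched on the transcribed strand, in 7.46% and 8.32%. These are matches of letters and not measured binding.
Rps18: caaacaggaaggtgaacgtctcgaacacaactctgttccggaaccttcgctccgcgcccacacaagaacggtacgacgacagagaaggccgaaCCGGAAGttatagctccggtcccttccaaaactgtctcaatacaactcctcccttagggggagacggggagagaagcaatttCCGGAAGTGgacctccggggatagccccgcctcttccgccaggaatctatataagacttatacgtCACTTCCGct

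The sort was seen in the markers, with Cd4 at 279 to 331 TPM in CD4SP and at most 0.104 TPM in CD8SP libraries, Cd8a at 0.319 to 2.93 and 1038 to 1161 TPM, and Cd3d at 979 TPM or more in all 6. Summed B cell markers were at 15.9 to 22.3 TPM in CD4SP and 21.3 to 24.5 in CD8SP libraries with Ms4a1 and Pax5 at 0, and myeloid markers at 17.1 to 31.3 and 3.64 to 9.09 with S100a8 and S100a9 at 0. NK markers were at 17.4 to 20.9 and 60.0 to 75.2 TPM with Ncr1 at 0. Most of the NK sum in CD8SP was Eomes, which CD8 T cells also express, at 8.19 to 10.6 TPM in CD4SP and 49.9 to 55.4 TPM in CD8SP libraries, and Klrb1c was at 0.682 to 1.82 and 5.22 to 9.14 TPM, also without overlap, while Tyrobp overlapped. At most 0.129 TPM of erythroid markers was listed. The part of these other markers in the results was not tested. Values are TPM, a measure of transcript abundance corrected for gene length and scaled to a fixed total in each library, so a share gained by one class is lost by others. The median difference of all 10476 tested genes was 0.28 on the log2(TPM + 1) scale, CD4SP minus CD8SP, and 25.2% of them had a negative difference. CD8SP replicates 1 and 2 were closest in the make-up of the ribosomal protein mRNA, with a median absolute log2 difference of 0.0317 over core genes against 0.0804 to 0.212 for the other 14 pairs of libraries. The sources do not say that they share a source, and results with their average are given below.

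Ribosomal protein mRNA was abundant in both populations and took a higher share in CD8SP iT cells. The 90 genes summed to 24.6%, 29.5% and 25.0% of TPM in CD4SP replicates 1 to 3 and to 33.2%, 32.8% and 36.7% in CD8SP replicates 1 to 3. All 3 CD8SP libraries lay above the 3 CD4SP libraries, and CD4SP replicate 2 and CD8SP replicate 3 were the highest of their populations. The means were 26.4% ± 2.68 (SD, n = 3) and 34.2% ± 2.13 (SD, n = 3), a difference of -7.86 percentage points, and with any library left out it was between -9.40 and -6.64. In bulk samples, fewer cells with much of this mRNA and less of it per cell cannot be told apart. The libraries also differed in how many genes reached 1 TPM. These were 10594, 10329 and 10649 in CD4SP and 10149, 10123 and 9971 in CD8SP replicates 1 to 3, without overlap. In each population the library with the fewest such genes had the highest ribosomal protein share. The part of this in the difference was not tested.

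Both subunits were higher in CD8SP. The small subunit genes made up 11.6%, 13.9% and 11.8% of TPM in CD4SP and 15.6%, 15.5% and 17.3% in CD8SP libraries. The large subunit genes made up 12.4%, 14.7% and 12.6%, and 16.8%, 16.5% and 18.4%, respectively. The populations did not overlap for either subunit. The ratio of small to large subunit mRNA was 0.939 ± 0.0110 (SD, n = 3) for CD4SP against 0.938 ± 0.00403 (SD, n = 3) for CD8SP, a difference of 0.000355 that lay within the spread between replicates. Paralogs added 0.179% ± 0.0320 (SD, n = 3) and 0.198% ± 0.0298 (SD, n = 3) of TPM, and the rows with pseudogene names 0.564% ± 0.0964 (SD, n = 3) and 0.645% ± 0.0677 (SD, n = 3).

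**Figure D1:**
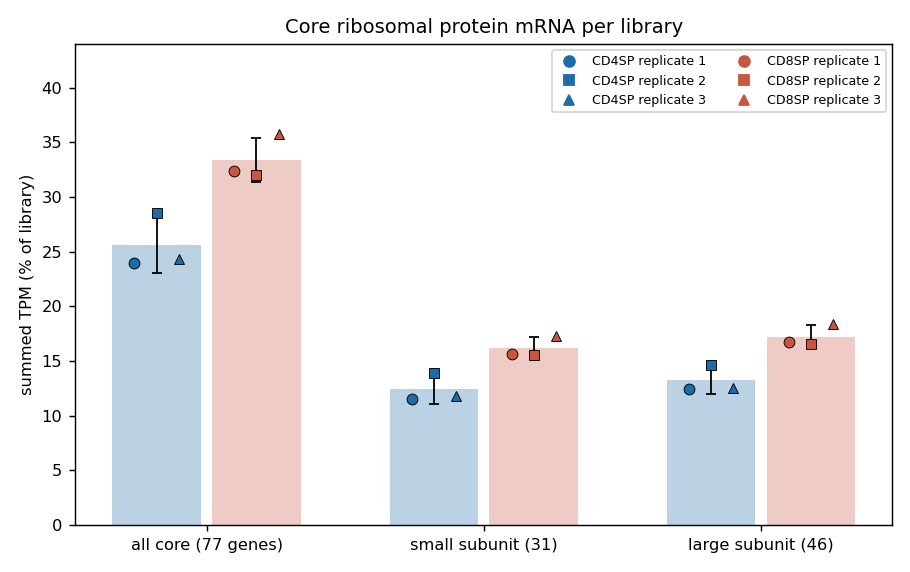
Summed TPM of core ribosomal protein genes as percent of each library (y axis), for all 77 genes and for each subunit; points are libraries, bars are means and error bars are SD over 3 libraries. All 3 CD8SP libraries lie above the CD4SP libraries in each of the 3 sums, with small subunit means of 12.4% and 16.2% and large subunit means of 13.2% and 17.2%.

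The core genes were not present at equal mRNA levels. TPM is a level per length, which lets genes be set beside each other within limits. Near-identical copies exist for 74 of the 77 core genes, and how their reads were divided was not stated. Shares also varied with coding length in single libraries, as given below. Averaged over the 6 libraries, the median core gene was at 3329 TPM, 4277 for the small and 2646 for the large subunit, and 68 of the 77 lay between 1000 and 10000 TPM. Rplp1 had the highest mean. Apart from 3 genes under 200 TPM (Rps27, Rpl34 and Rpl26), the core genes spanned 456 to 14404 TPM, a ratio of 31.6. The log2 shares of the genes were closely correlated between libraries. Pearson r across the 77 genes, which are not independent, was between 0.980 and 0.9995 for all pairs of libraries. The 3 genes under 200 TPM widen the range over which r was taken, and r without them was not computed. The median absolute log2 difference in share was 0.0317 to 0.212 over the pairs. The 10 most abundant genes held 28.4% ± 0.872 (SD, n = 3) of the ribosomal protein total for CD4SP against 28.8% ± 1.14 (SD, n = 3) for CD8SP.

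**Figure D2:**
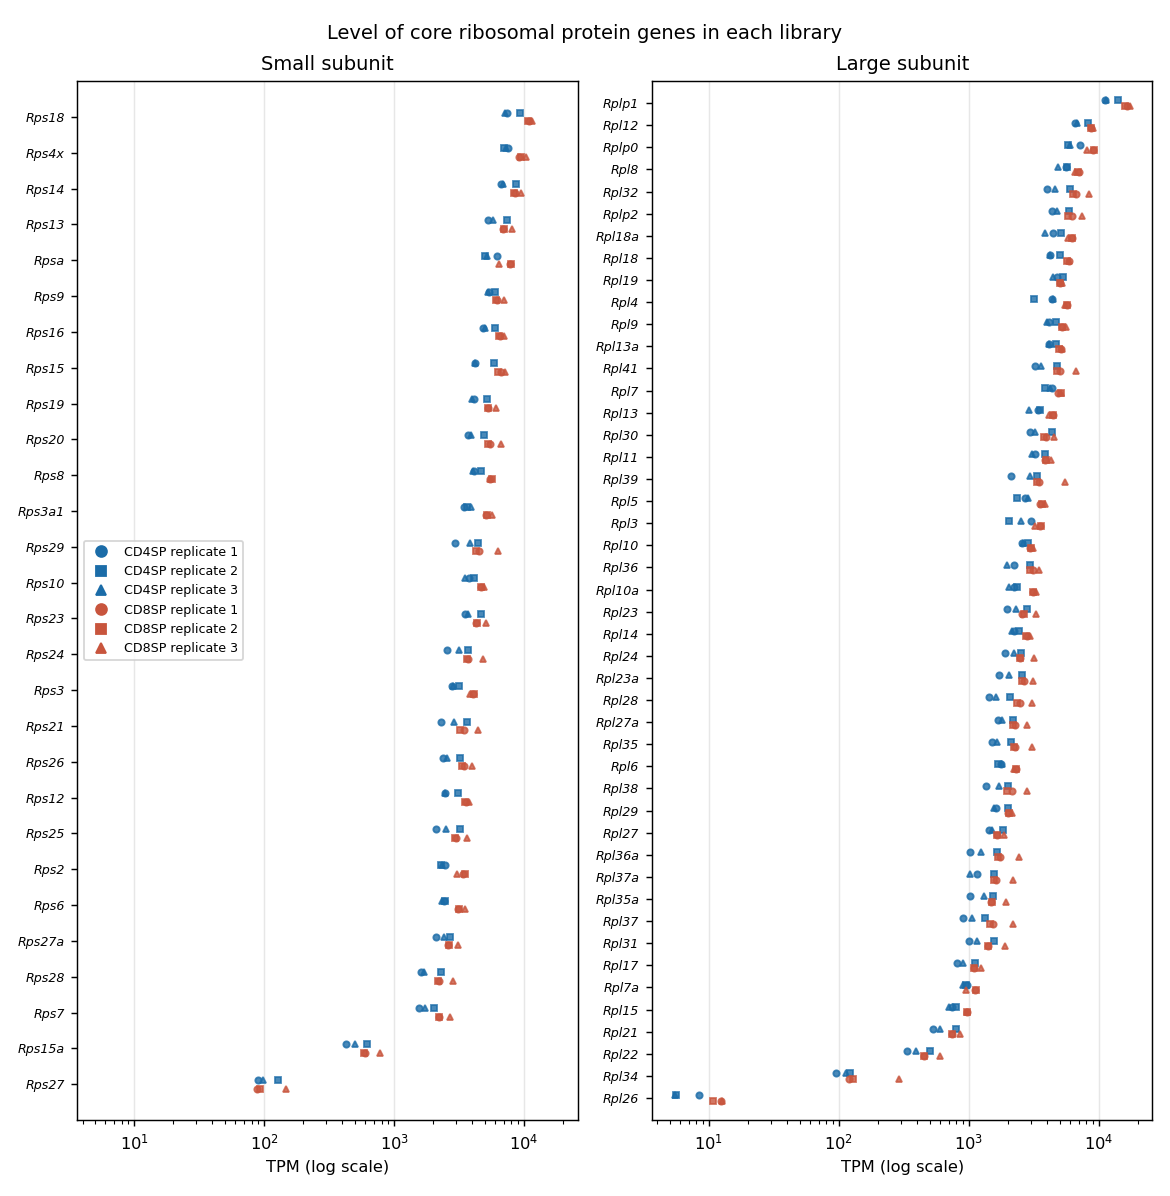
TPM of 74 core genes (x axis, log scale) in each library, genes ordered by their mean within the small and the large subunit. Most genes lie between 1000 and 10000 TPM, and Rps27, Rpl34 and Rpl26 lie under 200 TPM, apart from Rpl34 in CD8SP replicate 3.

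The largest share belonged to the stalk. Rplp1, which with Rplp0, Rplp2 and Rpl12 forms the P-stalk that recruits elongation factors, was at 11111, 14186 and 11370 TPM in the CD4SP replicates, and at 16556, 15887 and 17316 TPM in the CD8SP replicates. No CD4SP library reached the CD8SP values (difference of log2(TPM + 1), -0.45, SE 0.12, limma adjusted p 0.0320). Rplp1 alone held 4.63% ± 0.169 (SD, n = 3) of the ribosomal protein total for CD4SP against 4.86% ± 0.133 (SD, n = 3) for CD8SP. Rplp0, the base of the stalk, was at 7137, 5830 and 5971 TPM against 9070, 9165 and 8117 TPM, again without overlap (-0.48, SE 0.11, limma adjusted p 0.0217). Rpl12, also without overlap, was at 6585, 8216 and 6861 TPM against 8746, 8769 and 9059 TPM, and did not pass (-0.30, SE 0.11, limma adjusted p 0.0876). Rplp2 was at 4387, 5897 and 4747 TPM against 6250, 5841 and 7434 TPM, where CD4SP replicate 2 reached the CD8SP range (limma adjusted p 0.0917). The 4 stalk genes together held 11.7% ± 0.169 (SD, n = 3) and 11.9% ± 0.428 (SD, n = 3) of the total. Stalk proteins P1 and P2 are present in more than one copy per ribosome, unlike most others.

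Rpl8 and Rpl32 completed the 5 most abundant large subunit genes. Rpl8, a conserved protein close to the peptidyl transferase centre, was at 5621, 5669 and 4873 TPM in the CD4SP replicates, and at 7002, 6869 and 6615 TPM in the CD8SP replicates (-0.34, SE 0.10, limma adjusted p 0.0448). Rpl32 was at 4005, 5999 and 4633 TPM against 6683, 6366 and 8433 TPM (-0.56, SE 0.17, limma adjusted p 0.0482). Neither gene had overlapping populations.

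In the small subunit Rps18, Rps4x and Rps14 were among the most abundant genes. Rps18, a head protein, was at 7346, 9283 and 7159 TPM in the CD4SP replicates, and at 10958, 10668 and 11589 TPM in the CD8SP replicates (-0.49, SE 0.12, limma adjusted p 0.0256). The X-linked Rps4x was at 7489, 6997 and 7282 TPM against 9199, 9505 and 10335 TPM (-0.41, SE 0.096, limma adjusted p 0.0194). For both genes every CD8SP library lay above every CD4SP library. Rps14, a platform protein, was at 6632, 8705 and 6919 TPM against 8559, 8305 and 9420 TPM. CD4SP replicate 2 lay within the CD8SP range, and the gene did not pass (limma adjusted p 0.192).

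The differences were small for single genes and in one direction for nearly all of them. Of the 90 genes, 87 had at least 1 TPM in at least 3 libraries and were tested, including all 77 core genes. The difference of log2(TPM + 1) was negative, that is lower in CD4SP, for 86 of the 87, all but Rps27l, with a median of -0.37. After quantile normalization, which forces the same distribution on every library, it was negative for 75 and positive for 12. Relative to the median of all tested genes this was -0.65, and the gap was between -0.82 and -0.52 under all alternatives other than quantile normalization, where it was -0.19. In limma, 27 of the 87 were lower in CD4SP at an adjusted p under 0.05 and 0 were higher, where 3.23% of all tested genes were called lower and 17.6% higher. The 27 were 12 small subunit and 15 large subunit genes, with differences from -0.81 (Rpl26) to -0.34 (Rpl8). No gene passed when a change over 2-fold was also asked for, a rule that called 9.73% of all tested genes. At an unadjusted limma p under 0.05, 53 were lower, against 5.69% of all tested genes, and none was higher. In 47 of the 90 all 3 CD8SP libraries lay above all 3 CD4SP libraries, against 6.61% of tested genes, and in 0 the reverse held, against 36.6%.

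How many genes passed depended on single libraries and on the settings of the test. With all 6 libraries kept, the count of 27 became 3 without the mean-variance trend, 6 after quantile normalization, 8 without the filter on low values, 36 after median-of-ratios rescaling and 35 when scaled to the total of the other genes. Of all tested genes, 2.72%, 6.88%, 2.36%, 7.45% and 4.79% were called lower in CD4SP under these settings, in that order. By this count the family was near all tested genes after quantile normalization and without the trend. The count became 60 without CD4SP replicate 2, 14 without CD4SP replicate 1, 4 without CD4SP replicate 3, and 2, 3 and 8 without CD8SP replicate 1, 2 or 3. The shares of all tested genes were 4.27%, 2.91%, 2.42%, 1.51%, 1.59% and 2.24%, respectively. With CD8SP replicates 1 and 2 averaged the count was 2, where 1.58% of all tested genes were called lower. Rpl10a passed under all 19 settings tried, including the main one, and Rps3a1 under all but quantile normalization. Of the other genes named here as lower in CD4SP, Rps2 passed under 14 of the 19, Rps3 and Rpl5 under 13, Rplp0 and Rpl28 under 12, Rpl15 and Rpl26 under 11, and Rpl4 and Rps4x under 10. Rplp1, Rps18 and Rpl8 passed under 8, Rpl37 under 7 and Rpl32 under 6.

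**Figure D3:**
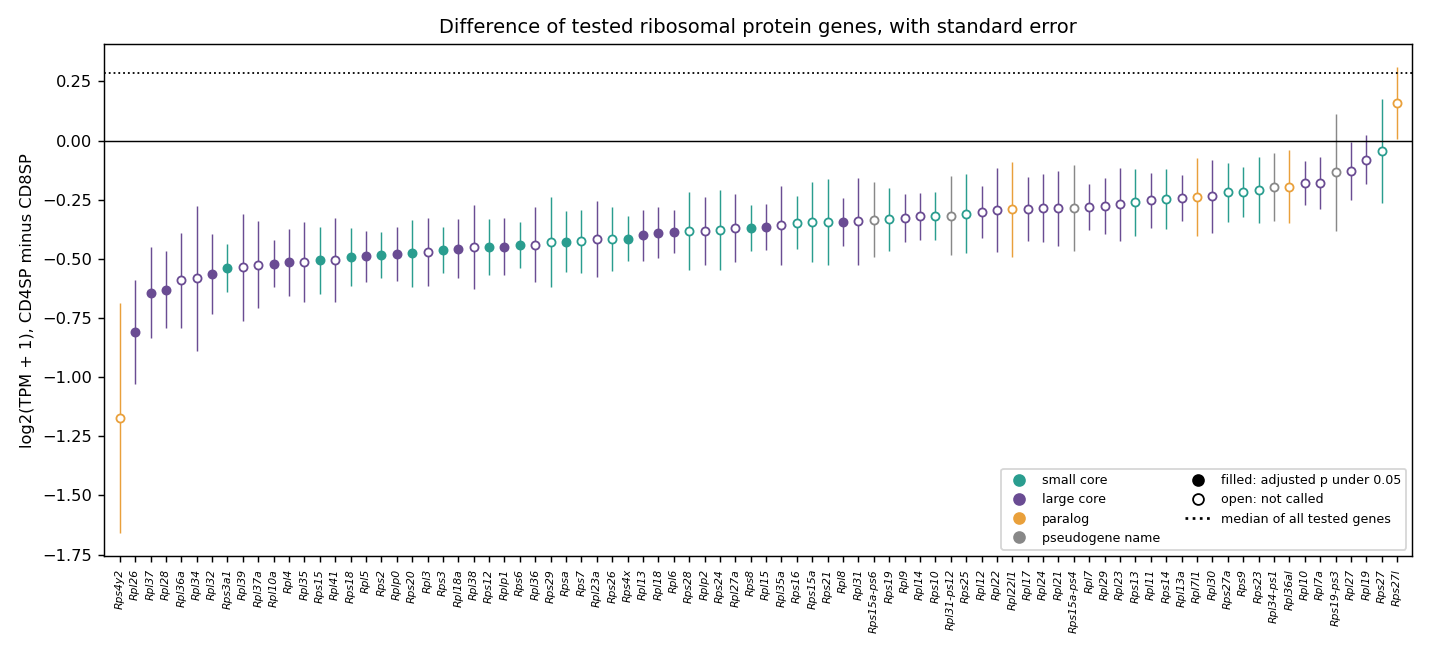
Difference of log2(TPM + 1), CD4SP minus CD8SP (y axis), with standard error for 84 of the 87 tested genes (x axis, ordered by difference), coloured by class and filled where the limma adjusted p was under 0.05. All but Rps27l lie below 0, all lie below the dotted line, the median of all tested genes at 0.28, and 26 are filled.

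Rps3a1 and Rpl10a had the smallest adjusted p. Rps3a1, on the solvent side of the platform, was at 3437, 3626 and 3898 TPM in the CD4SP replicates, and at 5118, 5152 and 5652 TPM in the CD8SP replicates (-0.54, SE 0.10, limma adjusted p 0.00767). Rpl10a, part of the L1 stalk that moves the leaving tRNA, was at 2225, 2367 and 2051 TPM against 3117, 3128 and 3273 TPM (-0.52, SE 0.098, limma adjusted p 0.00823). In both, the highest CD4SP library was well below the lowest CD8SP library. Rpl28 and Rpl37, both large subunit proteins, had larger differences and wider replicates. Rpl28 was at 1432, 2080 and 1605 TPM against 2489, 2332 and 3064 TPM (-0.63, SE 0.16, limma adjusted p 0.0284), and Rpl37 at 903, 1339 and 1055 TPM against 1537, 1448 and 2186 TPM (-0.64, SE 0.19, limma adjusted p 0.0465).

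Functional groups within the ribosome were examined next, beside 27 of 87 genes called lower in the family and 3.23% of all tested genes. Of the 5S particle, Rpl5, which with Rpl11 carries 5S RNA and can inhibit Mdm2, was at 2685, 2355 and 2846 TPM in the CD4SP replicates, and at 3533, 3654 and 3857 TPM in the CD8SP replicates (-0.49, SE 0.11, limma adjusted p 0.0150). Rpl11 was at 3225, 3828 and 3083 TPM against 3854, 3902 and 4287 TPM and did not pass (-0.25, SE 0.11, limma adjusted p 0.145). Both were without overlap. Of the 5 proteins at the mRNA channel, Rps2 (-0.48, limma adjusted p 0.0113) and Rps3 (-0.46, limma adjusted p 0.0129) were lower in CD4SP, and Rps23, Rps26 and Rps28 did not pass. Of the 8 at the exit tunnel, Rpl4 (-0.51, limma adjusted p 0.0351) and Rpl26 were lower, the latter in a row that held at most 0.272% of its sum with a pseudogene copy, a sum that overlapped between the populations, and Rpl17, Rpl19, Rpl23a, Rpl31, Rpl35 and Rpl39 did not pass.

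Of the 4 core genes on the X chromosome, Rps4x passed and Rpl10, Rpl36a and Rpl39 did not, and all 4 were without overlap between the populations, as were 47 of the 90 genes of the family and 6.61% of all tested genes in this direction. Rpl39, at the tunnel exit, was at 2118, 3332 and 2973 TPM in the CD4SP replicates, and at 3474, 3333 and 5529 TPM in the CD8SP replicates, where CD8SP replicate 3 stood well above the others and CD4SP replicate 2 lay just under CD8SP replicate 2 (-0.54, SE 0.23, limma adjusted p 0.125). Of 12 genes among those mutated in Diamond-Blackfan anaemia, a failure of red cell production, Rpl5, Rpl15 and Rpl26, the last with the limit just given, were lower in CD4SP, 3 of 12 where the family had 27 of 87 and all tested genes 3.23%. Rps19, the most often mutated of them in patients, was at 4083, 5224 and 3976 TPM against 5267, 5238 and 6132 TPM (-0.33, SE 0.13, limma adjusted p 0.109). As percent of the ribosomal protein total, the populations overlapped for the exit tunnel, mRNA channel, 5S, X-linked and Diamond-Blackfan groups. The exit tunnel genes, for instance, held 6.74% ± 0.269 (SD, n = 3) for CD4SP against 6.69% ± 0.273 (SD, n = 3) for CD8SP. Among the 13 core genes with a C and 4 pyrimidines at an annotated start, 4 were lower in CD4SP (median -0.37), and among the other 44 with a promoter window 16 were (median -0.39), where 3.23% of all tested genes were. The difference between these groups was not tested.

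Composition was compared by expressing each gene as a share of the ribosomal protein total of its library, which removes the shift common to the family. The median difference in log2 share was then 0.01, with 41 genes lower and 46 higher in CD4SP. Rpl19 and Rps27l passed in limma, both with a higher share in CD4SP, and 0 had a lower one, while 3 had an unadjusted p under 0.05. Over all tested genes on this scale 41.6% were higher in CD4SP and 1.62% lower, and the total that divides them was higher in CD8SP. The adjustment ran over all tested genes. With so many of them called, an adjusted p lay nearer to its unadjusted p than in the fit of levels. Adjustment among the members alone was not made. Shares did not overlap for 12 genes higher in CD4SP and for 2, Rps18 and Rpl28, higher in CD8SP, against 55.4% and 2.32% of tested genes. The same test gave from 0 to 10 genes with a library left out, 0 with CD8SP replicates 1 and 2 averaged, and 0 without the mean-variance trend.

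Rpl19, an essential large subunit protein that also forms a bridge to the small subunit, was at 4759, 5332 and 4422 TPM in the CD4SP replicates, and at 5042, 5026 and 5245 TPM in the CD8SP replicates. The populations overlapped in TPM (-0.08, SE 0.10, limma adjusted p 0.598) with a difference nearer to 0 than the family median of -0.37. Its share of the total was 1.94%, 1.81% and 1.77% in CD4SP and 1.52%, 1.53% and 1.43% in CD8SP libraries, without overlap (log2 difference in share 0.30, SE 0.083, limma adjusted p 0.0208). Over 17 settings this difference was between 0.26 and 0.33 and passed in 9, with an adjusted p from 0.0134 to 0.21. Rpl27 had the next smallest adjusted p in share among core genes, with 0.601% ± 0.0226 (SD, n = 3) and 0.505% ± 0.00617 (SD, n = 3) of the total, and did not pass (0.25, SE 0.099, limma adjusted p 0.0647).

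Paralogs were compared with their parents. Rps27l, a p53-responsive copy of Rps27, is shown with its parent because most of the mRNA of this pair was listed as the paralog and because it was the one tested gene with a positive difference. The genes lie at chr9:66946086-66949516 (Rps27l, plus strand) and chr3:90212522-90213651 (Rps27, minus strand), and their coding sequences of 255 bases (GENCODE M21, GRCm38) differ at 61 positions, in capitals below.
Rps27: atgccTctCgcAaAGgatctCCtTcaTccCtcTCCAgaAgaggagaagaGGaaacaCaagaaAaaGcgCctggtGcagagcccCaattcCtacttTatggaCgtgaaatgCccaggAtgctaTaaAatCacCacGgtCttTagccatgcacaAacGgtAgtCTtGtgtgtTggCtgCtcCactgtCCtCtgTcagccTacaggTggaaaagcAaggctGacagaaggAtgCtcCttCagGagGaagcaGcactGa
Rps27l: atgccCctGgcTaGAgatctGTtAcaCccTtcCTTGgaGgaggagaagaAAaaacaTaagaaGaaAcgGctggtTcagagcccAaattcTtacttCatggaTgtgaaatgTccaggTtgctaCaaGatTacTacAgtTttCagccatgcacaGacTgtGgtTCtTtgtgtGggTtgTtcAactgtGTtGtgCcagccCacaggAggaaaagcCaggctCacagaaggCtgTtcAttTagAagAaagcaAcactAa

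Rps27l was at 357, 479 and 450 TPM in the CD4SP replicates, and at 356, 347 and 447 TPM in the CD8SP replicates, which overlapped (0.16, SE 0.15, limma adjusted p 0.474). This difference lost its sign after rescaling, at -0.15 by median of ratios. Its share of the ribosomal protein total was 0.145%, 0.163% and 0.180% in CD4SP and 0.107%, 0.106% and 0.122% in CD8SP libraries, without overlap (log2 difference in share 0.54, SE 0.15, limma adjusted p 0.0192). Over 17 settings it was between 0.46 and 0.62 and passed in 12, with an adjusted p from 0.00848 to 0.0806. Rps27 was at 89.7, 127 and 97.3 TPM against 87.6, 93.6 and 148 TPM (-0.04, SE 0.22, limma adjusted p 0.902). Rps27l made up 79.9%, 79.1% and 82.2% of the pair in CD4SP and 80.3%, 78.8% and 75.2% in CD8SP libraries (exact two-sided permutation p 0.4, 3 against 3 libraries). Rps27 has 4 near-identical copies in the annotation and none of them has a row of its own in the table, whereas Rps27l has none.

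Rpl22l1 exceeded its parent as well. Rpl22, whose loss in mice impairs αβ T cell development, was at 333, 503 and 396 TPM in the CD4SP replicates, and at 449, 455 and 598 TPM in the CD8SP replicates, and Rpl22l1 at 441, 647 and 668 TPM against 633, 615 and 896 TPM. The paralog share was 57.0%, 56.3% and 62.8% in CD4SP and 58.5%, 57.5% and 60.0% in CD8SP libraries, with means of 58.7% in both (exact two-sided permutation p 1.0, 3 against 3 libraries). Neither gene differed by limma (adjusted p 0.261 and 0.322). A stretch of 120 coding bases in which 32 differ, in capitals, shows how far the pair has diverged (Rpl22, chr4:152325742-152334071, coding bases 176 to 295, and Rpl22l1, chr3:28805436-28807424, coding bases 158 to 277, both plus strand).
Rpl22: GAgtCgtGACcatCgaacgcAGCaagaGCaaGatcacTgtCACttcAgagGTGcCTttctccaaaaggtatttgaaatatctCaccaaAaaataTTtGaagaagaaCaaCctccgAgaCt
Rpl22l1: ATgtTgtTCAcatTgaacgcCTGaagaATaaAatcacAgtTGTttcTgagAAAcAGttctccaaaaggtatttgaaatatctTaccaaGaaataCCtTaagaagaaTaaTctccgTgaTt

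Rpl36al, an autosomal and closely similar version of the X-linked Rpl36a, was at 605, 892 and 732 TPM in the CD4SP replicates, and at 798, 784 and 946 TPM in the CD8SP replicates. Rpl36a was at 1025, 1634 and 1242 TPM against 1734, 1676 and 2449 TPM, without overlap (-0.59, SE 0.20, limma adjusted p 0.0691). The share of Rpl36al in the pair was 37.1%, 35.3% and 37.1% in CD4SP and 31.5%, 31.9% and 27.9% in CD8SP libraries, so that every CD4SP library lay above every CD8SP library. The difference of 6.08 percentage points had an exact two-sided permutation p of 0.1, the smallest that 3 libraries against 3 can give, and 0.6 after Benjamini-Hochberg adjustment over the 6 pairs compared. It was between 4.80 and 6.80 with any library left out. Over the first 150 coding bases the pair differs at 23 positions, in capitals (Rpl36a, chrX:134585654-134588062, plus strand, and Rpl36al, chr12:69182731-69184083, minus strand).
Rpl36a: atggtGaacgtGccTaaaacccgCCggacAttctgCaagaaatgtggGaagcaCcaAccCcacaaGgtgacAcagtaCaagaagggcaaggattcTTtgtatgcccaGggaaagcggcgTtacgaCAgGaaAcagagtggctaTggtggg
Rpl36al: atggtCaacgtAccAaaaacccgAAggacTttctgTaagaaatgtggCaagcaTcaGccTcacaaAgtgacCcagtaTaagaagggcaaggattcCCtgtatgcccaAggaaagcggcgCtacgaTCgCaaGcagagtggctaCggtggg

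**Figure D4:**
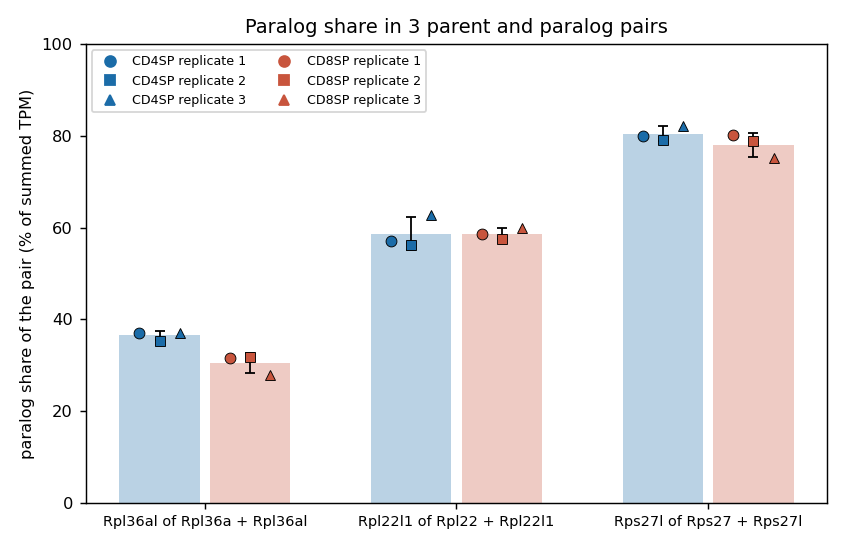
Share of the paralog in the summed TPM of parent and paralog (y axis, percent) for 3 pairs; points are libraries, bars are means and error bars are SD over 3 libraries. The populations are apart for Rpl36al (means 36.5% and 30.4%) and overlap for Rpl22l1 and Rps27l.

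The other paralogs were minor. Rpl7l1, a factor of 60S assembly, was at 26.9 to 36.3 TPM in the CD4SP replicates, and at 32.5 to 39.8 TPM in the CD8SP replicates, 0.739% ± 0.0963 (SD, n = 3) and 0.722% ± 0.0930 (SD, n = 3) of its pair with Rpl7 (exact two-sided permutation p 0.8). Rps4y2, a copy of Rps4x also named Rps4l, was at 0, 2.47 and 0.358 TPM against 2.74, 4.35 and 1.70 TPM, and did not pass (-1.17, SE 0.49, limma adjusted p 0.119). Rps4y2 is annotated as a transcribed processed pseudogene, and the name Rps4l was taken from RefSeq synonyms. Rpl39l was listed at 0.793 TPM in CD4SP replicate 2 and at 0 in the other libraries. Rpl3l and Rpl10l, known from muscle and testis, were listed at 0 in all 6 libraries, with their parents Rpl3 at 2056 to 3619 TPM and Rpl10 at 2576 to 3096 TPM.

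Most members have near-identical copies in the genome. A search of each coding sequence against the annotated transcripts found at least 1 copy (95% identity over at least 80% of the length) for 74 of the 77 core genes, with a median of 6 and up to 57 for Rpl21. For 13 core genes, a gene whose transcript matched had a row of its own. The only such row for Rpl21, Rpl7a and Rplp2 was a protein-coding gene of another name (BC004004, Ciapin1 and Wdr89), so it need not measure the copy. How the reads of such copies were divided was not stated. Rpl26 and Rpl34 were listed far below their copies. Rpl26 was at 8.35, 5.59 and 5.45 TPM in the CD4SP replicates, and at 12.3, 10.8 and 12.6 TPM in the CD8SP replicates, far below the median core gene. The processed pseudogene Gm15772 on chromosome 5 (3236431 to 3236868), which differs from the Rpl26 coding sequence at 2 of 438 bases, was listed at 3335, 4577 and 3518 TPM and 4525, 4606 and 5476 TPM. Rpl26 was lower in CD4SP (-0.81, SE 0.22, limma adjusted p 0.0332), but it held 0.122% to 0.272% of the sum of both rows. That sum was 3343, 4582 and 3523 TPM in the CD4SP replicates, and at 4538, 4616 and 5489 TPM in the CD8SP replicates, where CD4SP replicate 2 lay within the CD8SP range. A stretch around one differing base, in capitals, is given for Rpl26 (chr11:68901583-68906989, plus strand, coding bases 132 to 221) and Gm15772.
Rpl26: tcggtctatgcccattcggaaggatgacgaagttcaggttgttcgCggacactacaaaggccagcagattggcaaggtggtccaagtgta
Gm15772: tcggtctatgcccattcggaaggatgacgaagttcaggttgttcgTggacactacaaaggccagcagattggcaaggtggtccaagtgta

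Rpl34 was likewise at 94.7, 122 and 114 TPM in the CD4SP replicates, and at 120, 128 and 290 TPM in the CD8SP replicates, and Rpl34-ps1, a processed pseudogene at chr6:71124610-71124963, at 4454, 6244 and 4986 TPM against 5647, 5562 and 6632 TPM. Rpl34-ps1 ranked with the abundant core genes, and neither row passed (limma adjusted p 0.205 and 0.349). Their sum was 5338 ± 932 TPM (SD, n = 3) for CD4SP against 6126 ± 690 TPM (SD, n = 3) for CD8SP. The coding sequence of Rpl34 (chr3:130726831-130730398, minus strand) and the pseudogene differ at 2 of 354 bases, and bases 87 to 176 hold one of them, in capitals.
Rpl34: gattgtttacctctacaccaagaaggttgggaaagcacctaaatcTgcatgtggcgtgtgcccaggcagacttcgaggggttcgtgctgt
Rpl34-ps1: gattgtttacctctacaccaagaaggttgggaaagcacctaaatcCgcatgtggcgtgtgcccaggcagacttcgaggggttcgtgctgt

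The remaining rows with pseudogene names were lower. Rps15a-ps6 was at 146 to 248 TPM, Rps15a-ps4 at 95.2 to 169 TPM, Rpl31-ps12 at 78.4 to 131 TPM and Rps19-ps3 at 20.4 to 42.9 TPM over the 6 libraries, and none passed. Rps15a with its 2 copies summed to 789 ± 135 TPM (SD, n = 3) for CD4SP against 996 ± 175 TPM (SD, n = 3) for CD8SP. Of Rps23, the copy Gm5148, identical over 398 bases, was at 368 to 492 TPM beside 3498 to 5129 TPM for Rps23 itself.

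The make-up of the family also varied with the coding length of its genes, and it did so within populations. For each library, the deviation of a core gene's log2 share from its mean over 6 libraries was set against log2 coding length. Across the 77 core genes, Pearson r was 0.73, -0.62 and 0.15 in CD4SP replicates 1 to 3 and 0.38, 0.66 and -0.67 in CD8SP replicates 1 to 3, as a description over genes that share a library. CD4SP replicate 2 and CD8SP replicate 3, the libraries with the most ribosomal protein mRNA of their populations, had lower shares of the longest genes. The 26 longest genes (579 to 1260 coding bases, such as Rpl3, Rpl4, Rplp0 and Rpsa) held 40.4%, 33.0% and 37.3% of the total in CD4SP and 37.9%, 38.6% and 34.4% in CD8SP libraries. The 26 shortest (78 to 408 bases, such as Rpl41, Rpl39, Rps29 and Rpl37) held 23.5%, 27.4% and 25.6%, and 25.6%, 25.0% and 28.5%. For both groups the populations overlapped.

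**Figure D5:**
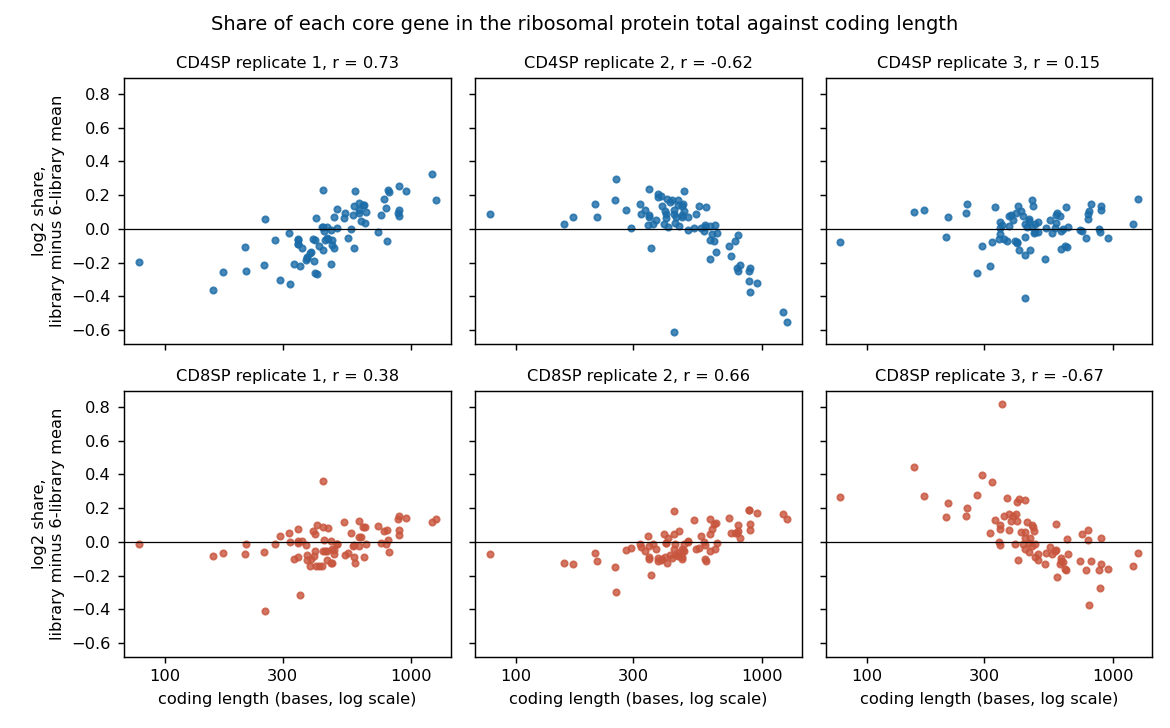
Log2 share of each core gene in the ribosomal protein total, as deviation from its 6-library mean (y axis), against coding length in bases (x axis, log scale), 1 panel per library with Pearson r. Points fall with length in CD4SP replicate 2 (r = -0.62) and CD8SP replicate 3 (r = -0.67) and rise in CD4SP replicate 1 (r = 0.73) and CD8SP replicate 2 (r = 0.66).

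More of the long than of the short genes passed, which was not tested as a difference. Of the 26 longest core genes 16 were lower in CD4SP by limma, of the 25 in the middle 7, and of the 26 shortest 4, against 3.23% of all tested genes, while the medians of the difference were -0.41, -0.32 and -0.43. Across the 77 genes the difference had an r of 0.09 with log2 coding length. Without CD4SP replicate 2 and CD8SP replicate 3, which leaves 2 libraries per population, 65 of the 87 genes were lower in CD4SP, and with a correction for length and GC content 44 were, or 22 when the replicate block was added, with a median of -0.53 in both. Of all tested genes, 4.97%, 7.77% and 5.72% were called lower in CD4SP under these settings, in that order. The part of length in the result was not tested beyond these settings, which were chosen after seeing the data.

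Genes that work with the ribosomal proteins were then placed beside them, from lists of known function. Of the genes outside the name pattern, neither Fau nor Gnb2l1 passed. Fau, which encodes the small subunit protein eS30 fused to a ubiquitin-like protein, was at 4255, 5520 and 3787 TPM in the CD4SP replicates, and at 4554, 4594 and 5187 TPM in the CD8SP replicates (-0.10, limma adjusted p 0.665). Gnb2l1, which encodes the scaffold Rack1, was at 7386, 5225 and 6074 TPM against 8266, 8472 and 7705 TPM, without overlap (-0.40, limma adjusted p 0.0686).

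Among 16 other mRNAs with a TOP tract, 3 were lower in CD4SP and 0 higher, with a median difference of -0.14, where 3.23% of all tested genes were called lower and 17.6% higher and their median was 0.28. They were Eef1b2 and Eef1g, subunits of the factor that recharges eEF1A, and the nucleolar chaperone Npm1. Eef1b2 was at 1848, 1971 and 1792 TPM in the CD4SP replicates, and at 2547, 2619 and 2477 TPM in the CD8SP replicates (-0.45, SE 0.094, limma adjusted p 0.0128). Eef1a1, the most abundant of the list, was at 11516, 7456 and 10426 TPM against 12276, 12731 and 11071 TPM and overlapped (limma adjusted p 0.193), and Tpt1 was at 8582, 7963 and 7839 TPM against 7429, 7534 and 6963 TPM, higher in CD4SP without overlap, and did not pass (0.15, limma adjusted p 0.275). Hnrnpa1 was also without overlap and higher in CD4SP, at 209 ± 10.8 TPM against 159 ± 38.0 TPM (SD, n = 3 each), and did not pass (0.42, limma adjusted p 0.131).

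Of 26 tested genes of ribosome biogenesis, 3 were lower in CD4SP and 0 higher, 23 had a negative difference and the median was -0.25. Over all tested genes 3.23% were called lower, 17.6% were called higher and 25.2% had a negative difference. The 3 work in the small nucleolar particles that modify ribosomal RNA. Nhp2 was at 144, 150 and 132 TPM in the CD4SP replicates, and at 219, 227 and 219 TPM in the CD8SP replicates (-0.64, SE 0.11, limma adjusted p 0.00517). Fbl, the methyltransferase fibrillarin, was at 168, 134 and 149 TPM against 226, 253 and 205 TPM (-0.60, SE 0.13, limma adjusted p 0.0164), and Nop56 at 85.1, 59.9 and 99.5 TPM against 133, 135 and 111 TPM (-0.65, SE 0.19, limma adjusted p 0.0452). None of the 3 had overlapping populations. The list summed to 0.120% ± 0.0104 (SD, n = 3) of TPM for CD4SP against 0.158% ± 0.00697 (SD, n = 3) for CD8SP, without overlap.

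Of 16 genes of mTORC1 and of TOP mRNA control, 0 were lower in CD4SP and 2 higher, a share below the 17.6% of all tested genes called higher, and the median difference of 0.10 was below that of all tested genes, 0.28. The 2 were Tia1 and Tial1, RNA-binding proteins that hold TOP mRNAs in repressed particles on stress. Tia1 was at 41.7, 36.9 and 40.5 TPM in the CD4SP replicates, and at 19.7, 28.2 and 22.8 TPM in the CD8SP replicates (0.74, SE 0.17, limma adjusted p 0.0186), and Tial1 at 57.9, 51.7 and 60.5 TPM against 39.9, 36.9 and 31.8 TPM (0.64, SE 0.15, limma adjusted p 0.0184). Larp1 (-0.12, limma adjusted p 0.612) and Mtor (-0.04, limma adjusted p 0.937) did not pass.

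The 73 mitochondrial ribosomal protein genes, which serve the separate ribosome of that organelle, had 32 negative and 41 positive differences and a median of 0.03, where 25.2% of all tested genes had a negative difference and the median was 0.28. By limma 1 was lower in CD4SP (Mrpl23) and 3 were higher (Mrpl44, Mrpl53 and Mrps5), against 3.23% and 17.6% of all tested genes. Their sum was 0.696%, 0.719% and 0.691% of TPM in CD4SP and 0.700%, 0.696% and 0.661% in CD8SP libraries, and the populations overlapped. The difference between the cytoplasmic and the mitochondrial list was not tested.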

How the data were processed

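Polyadenylated RNA of 6 aliquots of sorted cells was amplified and sequenced, and the authors deposited TPM estimated with StringTie after HISAT2 alignment to mm10. Sequencing depth is unknown, since TPM keeps none, and annotation and strand handling were not given in the sources used here. The 10476 genes that reached 1 TPM in 3 or more of the 6 libraries were fitted as log2(TPM + 1), which understates changes of low genes, with limma 3.58.1 in R 4.3.3 (population as the one term, mean-variance trend, Benjamini-Hochberg over all tested genes). The code was tested on simulated data. Shares were fitted after division by the summed TPM of the 90 members. The filter on low values removed Rpl3l, Rpl10l and Rpl39l. Pairs used an exact permutation test over libraries. Copies were searched with blastn 2.17.0, and positions are from GENCODE M21 on GRCm38. Named genes were the 5 most abundant core genes of each subunit, genes called at 2-fold or in share, the paralogs with their parents and members of the groups. Some genes that this rule names are not reported here, singly or in the plots by gene, but count in the totals. Rps3a1, Rpl10a, Rpl28, Rpl37, Rpl27 and the named genes of other lists were chosen after their values were seen. The members and lists were chosen with earlier results of these data known. Alternatives were pseudocount, filter, scaling, trend, replicate block, left-out libraries and, chosen after seeing the data, a length and GC correction.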

Additional observations from a re-analysis of the deposited data

How the results depend on the processing

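The lower ribosomal protein sum in CD4SP kept its direction with core genes alone and with any library left out (-9.40 to -6.64 percentage points). The median difference of -0.37 stayed negative, at -0.68 after median-of-ratios rescaling, -0.53 scaled to the other genes, -0.20 when quantile-normalized, -0.53 under the length and GC correction (block or not) and -0.45 to -0.29 with a library left out. The count of 27 genes lower in CD4SP became 8 without the filter, 6 after quantile normalization, 3 without the trend and 2 with CD8SP replicates 1 and 2 averaged. Of all tested genes, 2.36%, 6.88%, 2.72% and 1.58% were called lower under these settings, in that order. The count was 2 to 60 with a library left out, 65 without CD4SP replicate 2 and CD8SP replicate 3 together, 44 with the length and GC correction and 22 with it and the block. The shares of all tested genes there were 1.51% to 4.27%, 4.97%, 7.77% and 5.72%. One gene passed the 2-fold rule in place of 0 with either of those normalizations, median of ratios and quantile (Rpl26), and without CD4SP replicate 2, alone or with CD8SP replicate 3 (Rps4y2), so that leaving out a library gave 0 to 1. The 2 genes differing in share became 1 without the filter, 0 without the trend, 0 with the averaged pair, 0 to 10 with a library left out, 12 without both named libraries and 5 with the length and GC correction. The 12 called genes of the related lists became 30 after median-of-ratios rescaling, 21 scaled to the other genes, 22 when quantile-normalized, 5 without the trend, 3 with the averaged pair, 3 to 22 with a library left out, 19 without both libraries, 31 with the length and GC correction and 23 with it and the block. The settings with both libraries left out or with a length and GC correction were chosen after seeing the data, and the cause of these moves was not tested.

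No clear pairing by replicate number was seen (mean correlation of deviations 0.0411, from -0.0168 to 0.0887, and 3 of 6 libraries closest to their own number). These few values cannot tell whether libraries of the same number came from one mouse, which the labels do not say. With the replicate block 8 genes were lower in CD4SP, where 2.54% of all tested genes were, and 3 differed in share. Of the genes named as lower, Rplp1, Rps18, Rps4x, Rpl4, Rpl8, Rpl15, Rpl26, Rpl32 and Rpl37 did not pass with this block (for instance limma adjusted p 0.0529 for Rpl37 and 0.102 for Rpl8).

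Changes of sign are given for the genes followed through every setting. Of the 87 tested genes, 2 had a positive difference without CD4SP replicate 2, and 3 without that library and CD8SP replicate 3. Not every gene that turned is therefore named. After quantile normalization 12 of the 87 tested genes had a positive difference, and among the genes followed through every setting it was 0.071 for Rpl10, 0.030 for Rpl11, 0.26 for Rpl19, 0.19 for Rpl34-ps1, 0.10 for Rpl7, 0.0053 for Rpl8 and -0.0002 for Rps27l. Rps27l was also at -0.15 after median-of-ratios rescaling, -0.0037 scaled to the other genes and -0.015 under the length and GC correction, block or not. Rps27 lay between -0.19 and 0.19 with a library left out and was 0.04 without both libraries. The small to large ratio difference ranged from -0.0055 to 0.0054, that of the Rpl7l1 share from -0.039 to 0.061 and that of the Rpl22l1 share from -2.04 to 1.22 percentage points with a library left out. Unknown depth means that precision at low values, such as those of Rpl26, Rps4y2 and Rpl39l, could not be given.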
